A study of Rattus norvegicus with 12 samples.

Results

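The comparison described here sets the arrays of vein grafts taken 28 days after surgery against those taken 14 days after surgery, 6 of the 12 arrays in the series with 3 for each of the 2 days, chosen by the labelled day post surgery. In the grafted rats an external jugular vein bridged the carotid artery, and the study asked how gene expression changed as the graft narrowed, with vein from rats that had no operation as day 0 and grafts at day 7 as the other group. All arrays held total RNA of whole vein from male rats, and neither strain, age nor drug treatment is given in the sources used here. Every graft array is therefore an operated vessel under arterial flow, and the day 14 and day 28 groups are set apart in the labels by the day. Sample codes in the titles also differ, since all 3 day 28 and 2 of the day 7 arrays have a code that starts with Z and the day 14 arrays have plain numbers. What the codes mean is not given in the sources used here, and any difference they stand for cannot be told apart from day. The design text speaks of 3 independent experiments for each graft time, but the labels do not say whether each array held a separate animal, so the p-values cover only how far these arrays vary, and that variation may be technical.

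A vein moved into an artery loses much of its endothelium and smooth muscle, fills with phagocytes and lymphocytes, and builds a layer of matrix-making cells inside its wall. In the weeks that follow, endothelium regrows over the surface, smooth muscle can regain its contractile proteins, and the inflammatory infiltrate can thin out. Macrophages are marked by lysosomal and phagocytic genes, antigen presentation by class II histocompatibility genes, and contractile muscle by actin-binding and calcium-handling genes. Whole-vessel RNA mixes all of these cells, so a lower level can mean fewer cells of a type or less RNA per cell, and these cannot be told apart here.

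Each value is the log2 processed signal of a probe less its array's 75th percentile, so a value of 0 is a spot as bright as that percentile and a difference of 1 is a 2-fold difference. Levels are compared within a probe only, except that the summed signal of a list adds its probes on each array. Such a sum is set mostly by the brightest probes of the list. On the 6 arrays between 79.0% and 82.0% of the gene spots were well above background and 0 were saturated. Pearson correlations over all probes were 0.983 to 0.993 within day 14, 0.981 to 0.991 within day 28 and 0.963 to 0.974 between the days. The first principal component of the 6 arrays held 59% of the variance and placed day 14 at -50.8 to -74.7 and day 28 at 48.5 to 71.1. The second held 16.9% and put day 14 replicate 2 and day 28 replicate 2 at one end, at -31.1 and -50.3. Slide 1 held 2 arrays of each day, day 14 replicates 2 and 3 and day 28 replicates 1 and 2, while day 14 replicate 1 was on slide 2 and day 28 replicate 3 on slide 3. Of the vessel markers, Tagln, Tpm2, Des and Pecam1 were well above background on all 6 arrays, whereas Acta2, Myh11, Col1a1 and Mki67 had no probe matched by symbol.

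With the spread estimated from all 12 arrays, 829 of 24684 probes (3.36%) differed between day 28 and day 14 at an adjusted p under 0.05 in limma. Of these 429 (1.74%) were higher at day 28 and 400 (1.62%) were lower, 727 differed at least 2-fold, and on all 829 the 3 arrays of one day lay wholly above the 3 of the other. With only the 6 arrays compared, 5700 probes (23.1%) passed, 2649 higher (10.7%) and 3051 lower (12.4%), and these included 824 of the 829. The median standard deviation of a probe within a day was 0.48 at day 0 and 0.35 at day 7, against 0.19 at day 14 and 0.20 at day 28. Day 0 replicate 3 and day 7 replicate 3 carried 460 and 393 spots marked non-uniform, where the remaining 10 arrays had 2 to 11, and leaving out these 2 arrays gave 4300 calls. Both fits are given below, and a gene is said to have risen or fallen only where it passed the 12-array fit, unless the 6-array fit is named. Probes whose 3 values at one day all lay above the 3 at the other numbered 4895 higher (19.8%) and 6168 lower (25.0%) over the whole array, and the median change of all probes was -0.08. On slide 1 alone all 829 called probes changed in the same direction, and with slide as a fixed block 97 remained past the threshold, 39 higher and 58 lower. Median scaling moved the median of all probes to 0.06 and gave 600 probes higher and 308 lower. Normexp background correction, called the other background correction below, gave 57 calls, and 20 of the 85 calls among named probes held with it. For all named probes whose fold is given below as a lower bound, it made the change smaller and ended the call.

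**Figure D1:**
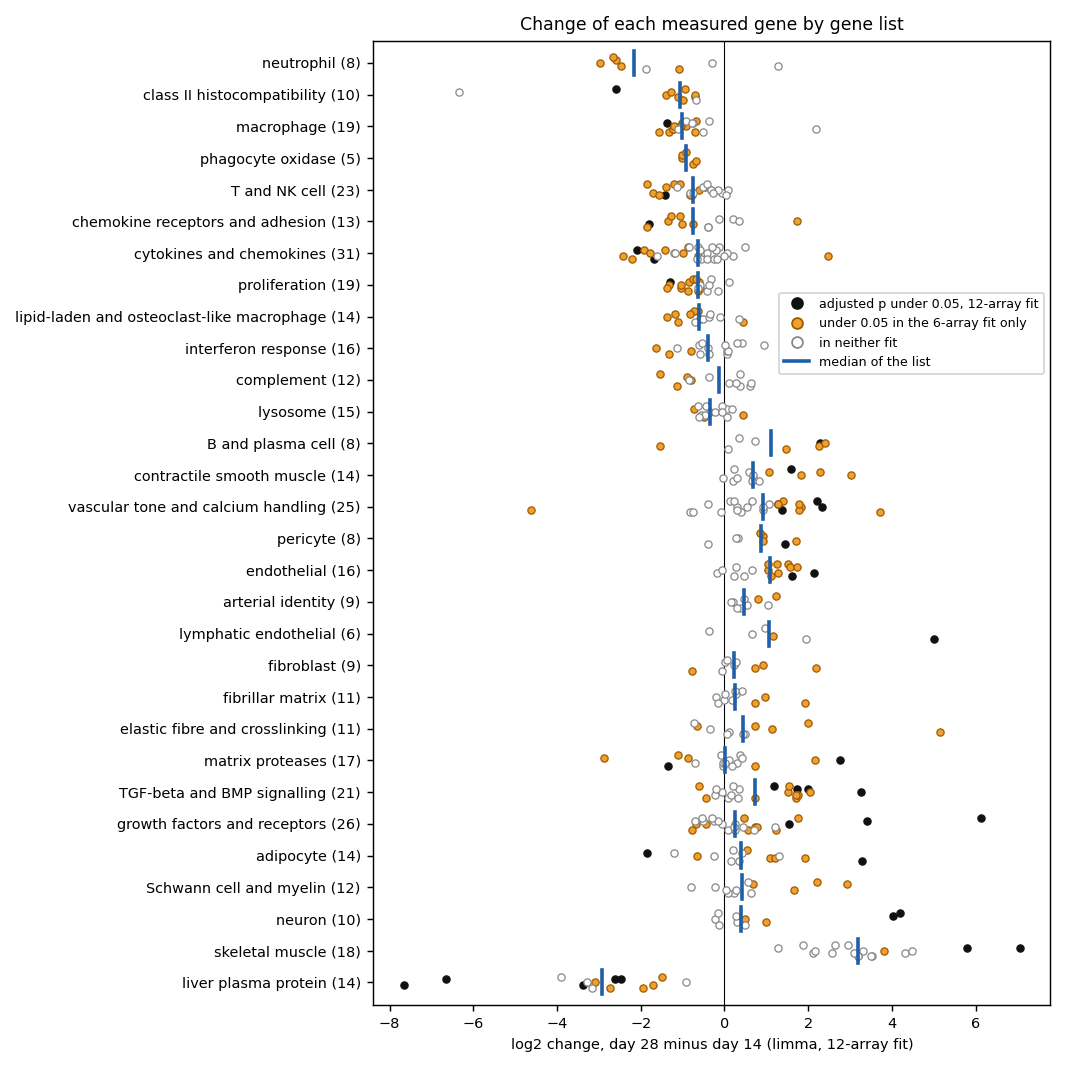
Log2 change from day 14 to day 28 (horizontal axis) of each measured gene in 30 gene lists (vertical axis, number of measured genes in brackets). Black points passed the 12-array fit, orange points the 6-array fit only, open points neither, and blue bars are list medians. Medians of the cell-cycle list and of all immune lists but B and plasma cells lie left of 0, those of the smooth muscle, pericyte and endothelial lists lie right of it, and the skeletal muscle and liver plasma protein lists lie farthest out, with medians of 3.18 and -2.92.

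Macrophage genes were lower at day 28 by about 2-fold. Of 19 measured members the median change was -1.02, 17 had all day 28 arrays below all day 14 arrays, 1 passed the 12-array fit and 12 passed the 6-array fit, all 12 lower. The median on slide 1 alone was -1.06. The member that fell was Laptm5, a lysosomal membrane protein of blood cells, which read 3.36, 3.2 and 3.37 at day 14 and 1.91, 1.79 and 2.09 at day 28. It fell by 1.38 (SE 0.19, adjusted p = 0.00599), with all 3 arrays of day 28 below those of day 14. Cd68, the lysosomal glycoprotein used to stain macrophages, read 4.32, 4.48 and 4.31 at day 14 and 3.39, 3.29 and 3.36 at day 28. Its change was -1.02 (SE 0.59, adjusted p = 0.365) and the 6-array adjusted p was 0.00375, so its groups stood apart while the 12-array fit did not pass. Trem2, a lipid-sensing receptor of macrophages, read 5.48, 5.24 and 5.64 at day 14 and 4.65, 4.58 and 4.65 at day 28, a change of -0.83 (SE 0.41, adjusted p = 0.289) with a 6-array adjusted p of 0.0112. Lyz2, lysozyme, changed by -0.36 and passed in neither fit, while C1qa, a chain of complement C1q, changed by -0.91 and passed the 6-array fit (adjusted p = 0.0383). Cd163, the scavenger receptor for haemoglobin, was the one member with a positive change, 2.18 (adjusted p = 0.27 and 0.131 in the 2 fits). The summed signal of the 19 probes was 733 to 796 times the 75th percentile at day 14 and 398 to 535 at day 28, so the ranges did not overlap.

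Genes of lipid-laden and osteoclast-like macrophages were mostly lower at day 28, without a call in the 12-array fit. Of 14 measured, 0 passed the 12-array fit and 7 were lower and 1 higher in the 6-array fit, with a median of -0.61. Spp1, the secreted matrix protein osteopontin, read 7.22, 7.22 and 7.1 at day 14 and 7.25, 7.0 and 7.0 at day 28, and its groups overlapped with a change of -0.1 (SE 0.3, adjusted p = 0.908). Gpnmb, a glycoprotein of lipid-loaded phagocytes, read 7.6, 7.45 and 7.68 at day 14 and 7.27, 6.91 and 7.44 at day 28, a change of -0.37 (SE 0.54, adjusted p = 0.764) with groups that did not overlap. Mmp12, the macrophage elastase, read 5.4, 4.83 and 5.74 at day 14 and 4.64, 4.7 and 4.54 at day 28. Its day 14 and day 28 arrays did not overlap, but the change of -0.7 passed in neither fit (adjusted p = 0.594 and 0.0827). In unoperated vein the means of these 3 transcripts were 0.19, 3.34 and -2.84, far below all graft arrays of both days. All 5 measured genes of the phagocyte oxidase, the enzyme that makes superoxide, had separate groups and passed the 6-array fit as lower, with a median of -0.93 and 0 calls in the 12-array fit. The 15 lysosome genes had a median of -0.34, with 2 lower and 1 higher in the 6-array fit.

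Class II histocompatibility genes, which present peptides to helper T cells, were all lower at day 28. Of 10 measured the median change was -1.06, 9 had separate groups, 1 passed the 12-array fit and 8 the 6-array fit. RT1-Db1, a beta chain, read 5.42, 4.76 and 5.84 at day 14 and 2.8, 2.1 and 3.37 at day 28 and fell by 2.58 (SE 0.58, adjusted p = 0.0409). The alpha chains RT1-Ba and RT1-Da changed by -1.4 and -1.27, with 6-array adjusted p-values of 0.0116 and 0.0178. Ciita, the coactivator that class II promoters require, changed by -1.11 (6-array adjusted p = 0.0174, 12-array 0.0859). RT1-Bb, a beta chain, differed between arrays of one day, reading 5.69, 5.23 and 5.97 at day 14 and 2.62, -8.72 and 3.94 at day 28. The probe was not well above background on day 28 replicate 2, nor on the 3 arrays of day 7 at -7.61, -8.98 and -8.05, and the change of -6.35 was not past the threshold (adjusted p = 0.198). Class II genes are a family of close copies, so signal from a neighbour cannot be told apart from a probe's own gene. The list's median on slide 1 was -1.14.

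The stretches before the transcription starts of RT1-Db1, RT1-Da and RT1-Ba are shown because these members moved together and because class II promoters are known for a CCAAT motif in their Y box. The sequences are 250 bases long, 5′ to 3′ and ending at the base before the start, from RefSeq on build GRCr8, with each CCAAT or its reverse complement ATTGG in capitals.
RT1-Db1 (chr20:4560163-4560412, minus strand): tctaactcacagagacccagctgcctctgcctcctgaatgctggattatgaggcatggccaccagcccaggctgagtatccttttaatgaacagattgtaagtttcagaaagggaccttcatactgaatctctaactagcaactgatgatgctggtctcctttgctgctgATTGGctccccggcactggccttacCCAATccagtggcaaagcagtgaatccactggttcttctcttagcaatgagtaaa
RT1-Da (chr20:4515165-4515414, plus strand): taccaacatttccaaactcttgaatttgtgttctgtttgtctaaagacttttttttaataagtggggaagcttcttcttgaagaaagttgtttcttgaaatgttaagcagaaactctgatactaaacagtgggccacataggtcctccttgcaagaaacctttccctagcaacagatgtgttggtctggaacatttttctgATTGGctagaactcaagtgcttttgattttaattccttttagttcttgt
RT1-Ba (chr20:4576807-4577056, plus strand): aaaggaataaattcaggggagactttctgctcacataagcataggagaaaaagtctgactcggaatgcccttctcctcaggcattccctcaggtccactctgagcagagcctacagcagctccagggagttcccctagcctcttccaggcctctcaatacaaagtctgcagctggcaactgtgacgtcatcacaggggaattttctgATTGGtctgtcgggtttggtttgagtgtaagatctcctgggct
The motif began 80 and 55 bases before the start in RT1-Db1, 49 in RT1-Da and 43 in RT1-Ba. It was present in 8 of the 8 class II genes with a sequence in the table, of 10 measured, and in 34.0% of all 33469 stretches of this length. In other lists it was present in 8 of 14 macrophage, 6 of 10 contractile smooth muscle and 6 of 17 skeletal muscle genes with a sequence. For Laptm5 the purine-rich motif GAGGAA, a core that the myeloid factor PU.1 is known to bind, was searched on both strands. The match, read here as its reverse complement, is in capitals.
Laptm5 (chr5:148371630-148371879, plus strand): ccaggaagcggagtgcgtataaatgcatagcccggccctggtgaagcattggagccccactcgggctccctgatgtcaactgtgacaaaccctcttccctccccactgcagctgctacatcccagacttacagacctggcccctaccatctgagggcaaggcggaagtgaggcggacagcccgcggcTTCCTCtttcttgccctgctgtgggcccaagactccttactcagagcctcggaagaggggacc
It occurred once, beginning 63 bases before the start, and was present in 10 of 14 macrophage genes with a sequence, of 19 measured, against 23.3% of all stretches. A match describes the letters in the window and is not a mapped site.

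Lymphocyte and granulocyte genes were lower too, with few past the 12-array fit. Of 23 T and NK cell genes the median was -0.76 (-0.66 on slide 1), 14 had separate groups, 1 fell in the 12-array fit and 11 in the 6-array fit, while Cd28 and Foxp3 were not well above background on any of the 6 arrays. Nkg7, a granule protein of cytotoxic cells, read -0.03, 0.39 and -0.11 at day 14 and -1.35, -1.0 and -1.65 at day 28 and fell by 1.42 (SE 0.33, adjusted p = 0.0446). Cd8a, the co-receptor of cytotoxic T cells, read 2.85, 2.53 and 3.02 at day 14 and 1.45, 0.76 and 2.01 at day 28, and Cd3g, a chain of the T cell receptor complex, read 0.33, 0.61 and 0.22 at day 14 and -0.44, -0.27 and -0.58 at day 28. Both had separate groups and passed the 6-array fit alone (adjusted p = 0.032 and 0.016), and Cd3g read -0.05, -0.53 and 5.8 at day 0 and 0.27, 0.24 and 5.17 at day 7, high on the 2 arrays with non-uniform spots. The list's summed signal was 19.3 to 19.5 at day 14 and 8.94 to 10.6 at day 28. Neutrophil genes had the lowest median of the immune lists, -2.17 over 8 genes (-1.22 after the other background correction). They had 0 calls in the 12-array fit and 5 lower in the 6-array fit. Of the 8, 7 had a negative and 1 a positive change, of 1.29, and S100a9, Mpo and Elane were not measured. Lcn2 read 1.47, 0.4 and 1.91 at day 14 and -0.21, -2.41 and 0.79 at day 28. Its groups overlapped, and its change of -1.87 passed in neither fit (adjusted p = 0.383 and 0.164). S100a8, a calcium-binding protein of neutrophils and monocytes, read 1.56, 1.93 and 1.62 at day 14 and -1.33, -1.29 and -1.21 at day 28. All 3 day 28 arrays were lower by close to 3 log2 units, with a 12-array adjusted p of 0.144 and a 6-array adjusted p of 0.000684, and the day 7 arrays ranged from 0.84 to 5.08. Csf3r, the receptor for granulocyte colony-stimulating factor, changed by -2.47 (6-array adjusted p = 0.00284) and Cxcr2, a chemokine receptor of neutrophils, by -2.58 (0.00269).

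B and plasma cell genes mostly moved the other way. Of 8 measured, 7 had a positive change, 1 rose in the 12-array fit, and the 6-array fit called 4 higher and 1 lower, with a median of 1.1 (0.34 after the other background correction). On slide 1 alone 5 had a positive and 3 a negative change, with a median of 0.82. Cd79b, a signalling chain of the B cell receptor, read -5.58, -4.91 and -5.17 at day 14 and -2.75, -2.25 and -3.81 at day 28 and rose by 2.28 (SE 0.52, adjusted p = 0.042), or 0.92 after that correction. Its 3 day 28 arrays were above all day 14 arrays, and the day 7 arrays read -2.02, -1.74 and -3.45. Tnfrsf17, a plasma cell receptor, changed by 2.4, with a 6-array adjusted p of 0.00436 and a 12-array value of 0.156. Pax5, a B cell transcription factor, went against them, reading 0.13, 0.11 and -0.08 at day 14 and -1.4, -1.75 and -1.28 at day 28, a change of -1.53 (SE 0.46, adjusted p = 0.098). The list's summed signal, 1.45 to 1.88 at day 14 and 1.52 to 1.56 at day 28, overlapped.

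Among cytokines, chemokines and their receptors, 2 of 31 fell in the 12-array fit and 10 in the 6-array fit, with 1 higher there and a median of -0.63. Il10ra, a receptor chain for interleukin 10, read -0.62, -0.75 and -0.53 at day 14 and -2.37, -2.5 and -2.12 at day 28 and fell by 1.69 (SE 0.33, adjusted p = 0.0233). Osm, the cytokine oncostatin M, read -3.19, -3.23 and -2.84 at day 14 and -5.38, -5.33 and -4.83 at day 28 and fell by 2.09 (SE 0.49, adjusted p = 0.0459), with a change of -1.03 after the other background correction. In both the 2 days stood clearly apart on all arrays, and Il10ra was at -6.87 or below on every day 0 array. Il1b, interleukin 1 beta, was lower by a change of -1.93 in the 6-array fit (adjusted p = 0.00324, 12-array 0.232). Ccl2, the main chemokine for monocytes, read 3.57, 2.95 and 3.84 at day 14 and 3.3, 3.41 and 3.24 at day 28, and its groups overlapped, as did those of Cxcl10, Il6 and Cxcl13, with changes of -0.21, -0.18 and 0.0. Cx3cl1, a membrane-bound chemokine of endothelium, was the member called higher in the 6-array fit, at 2.48 (adjusted p = 0.0135).

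Of 13 chemokine receptors and adhesion molecules, 1 fell in the 12-array fit and 7 were lower and 1 higher in the 6-array fit, with a median of -0.76. Vcam1, an adhesion molecule displayed by activated wall cells, read 2.68, 2.24 and 2.84 at day 14 and 4.54, 5.01 and 3.44 at day 28, with every day 28 array higher and a change of 1.74 that just missed the 12-array threshold (adjusted p = 0.05 after rounding) and passed the 6-array fit (0.0327). Interferon response genes had a median of -0.38 over 16, with 0 calls in the 12-array fit and 3 lower in the 6-array fit. They went both ways, with 7 positive and 9 negative changes. Of the 16, 4 lay wholly lower on the day 28 arrays, against 25.0% of all probes. Irf7, a regulator of that response, read 2.65, 3.05 and 2.42 at day 14 and 2.33, 2.48 and 2.13 at day 28, with overlapping groups at day 14 and day 28 far below its day 7 arrays at 5.43, 5.23 and 5.92. Of 12 complement genes 6 had a positive and 6 a negative change, 0 passed the 12-array fit, and the 6-array fit called 4 lower and 0 higher.

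**Figure D2:**
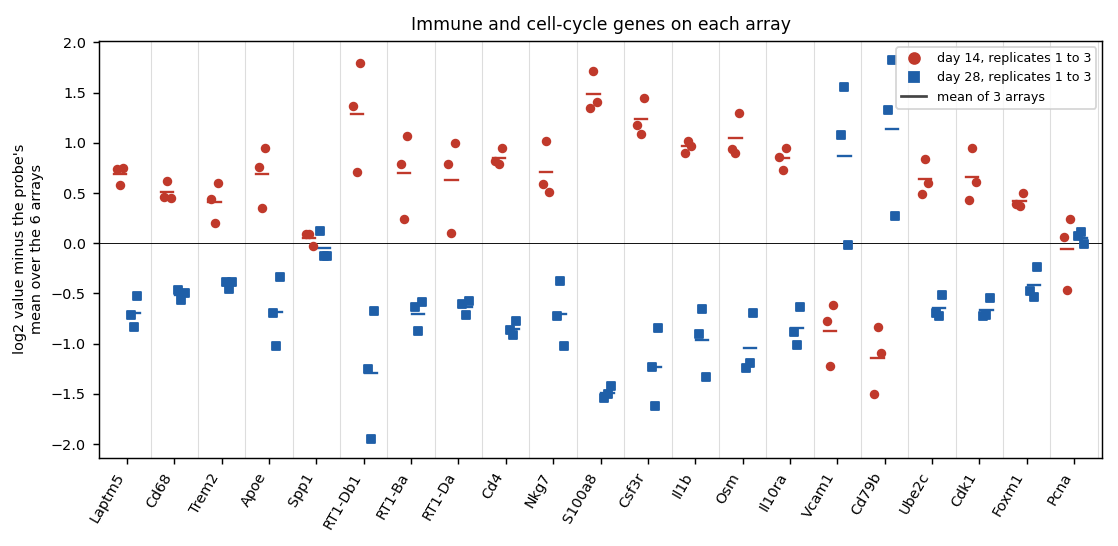
Log2 value of each array minus the probe's mean over the 6 arrays (vertical axis) for 21 immune and cell-cycle genes (horizontal axis), with day 14 as red circles, day 28 as blue squares and a bar at the mean of 3 arrays. For Laptm5, Cd68, Il10ra and Ube2c all 3 blue squares lie below all 3 red circles, for Cd79b and Vcam1 they lie above, and for Spp1 and Pcna the groups overlap.

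Cell-cycle genes were lower at day 28. Of 19 measured the median was -0.63 (-0.69 on slide 1), 15 had separate groups, 1 fell in the 12-array fit and 12 in the 6-array fit. The gene that fell was Ube2c, a ubiquitin-conjugating enzyme of mitotic exit, reading -0.24, 0.11 and -0.13 at day 14 and -1.42, -1.45 and -1.24 at day 28, and it fell by 1.29 (SE 0.19, adjusted p = 0.0081). Cdk1, the kinase that starts mitosis, read 1.04, 1.55 and 1.21 at day 14 and -0.12, -0.11 and 0.06 at day 28. Its groups stood apart with a 6-array adjusted p of 0.0054, but on day 0 it ranged from -0.05 to 8.07, and the 12-array adjusted p was 0.702. Pcna, the sliding clamp of DNA synthesis, read 2.72, 2.2 and 2.9 at day 14 and 2.73, 2.77 and 2.65 at day 28, with overlapping groups and a change of 0.11 (SE 0.23, adjusted p = 0.855). Over the 19 probes the summed signal was 26.3 to 31.5 at day 14 and 19.9 to 20.1 at day 28. The stretch before the start of Cdk1 is shown for its CCAAT motifs, which promoters of mitotic genes are known to carry, in capitals on either strand.
Cdk1 (chr20:19265043-19265292, plus strand): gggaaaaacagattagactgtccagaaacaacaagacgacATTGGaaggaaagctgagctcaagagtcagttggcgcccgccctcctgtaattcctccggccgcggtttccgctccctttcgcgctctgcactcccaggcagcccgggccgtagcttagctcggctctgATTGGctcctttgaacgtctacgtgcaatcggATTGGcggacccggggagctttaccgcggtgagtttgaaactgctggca
They began 210, 81 and 49 bases before the start, and the motif was present in 9 of 13 proliferation genes with a sequence, of 19 measured, against the 34.0% of all stretches. It was also present in 8 of 14 macrophage and 6 of 10 contractile smooth muscle genes with a sequence, so it is not particular to the cell-cycle list.

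Contractile smooth muscle genes were higher at day 28 to unequal degrees. Of 14 measured, 13 had a positive change with a median of 0.68 (0.73 on slide 1), 7 had separate groups, 1 rose in the 12-array fit and 5 in the 6-array fit, and 0 were lower in either. Lmod1, an actin filament nucleator of smooth muscle, read -1.91, -1.65 and -2.56 at day 14 and -0.49, -0.38 and -0.48 at day 28 and rose by 1.59 (SE 0.35, adjusted p = 0.0373). All day 28 arrays were above day 14, and the day 0 arrays, at 2.07, 3.2 and 2.64, were higher than both. Myocd, the coactivator myocardin, had the largest change of the list, 3.02, ahead of Ppp1r14a, an inhibitor of myosin phosphatase, at 2.28, and Cnn1, calponin, at 1.82. These passed the 6-array fit (adjusted p = 0.0126, 0.00315 and 0.0215) and not the 12-array fit (0.125, 0.0665 and 0.129).

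Other contractile proteins did not pass the test. Tagln, transgelin, read 6.36, 6.84 and 6.15 at day 14 and 7.17, 7.07 and 7.08 at day 28, Tpm2, beta tropomyosin, read 6.15, 6.65 and 5.98 at day 14 and 6.99, 6.65 and 7.19 at day 28, and Des, the intermediate filament desmin, read 4.67, 4.57 and 4.87 at day 14 and 5.42, 4.63 and 5.83 at day 28. Their changes of 0.66, 0.68 and 0.59 passed in neither fit, and day 28 replicate 2 was the lowest day 28 array for all 3. The groups of Tagln did not overlap, whereas those of Des did and those of Tpm2 met. Mylk, the kinase that activates smooth muscle myosin, read 1.9, 2.17 and 1.45 at day 14 and 2.27, 2.74 and 1.38 at day 28 with overlapping groups, against 5.58, 6.77 and 7.01 at day 0. The list's summed signal was 252 to 386 at day 14 and 452 to 500 at day 28, and the median of its probes' means was 3.61 and 4.46, against 6.46 at day 0. Des and Tpm2 are also made in skeletal muscle, and the skeletal muscle genes described further on were higher at day 28 with replicate 2 lowest there too. Their part in these values was not tested.

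Genes of vascular tone and calcium handling gave 4 rises. Of 25 measured, 4 rose and 0 fell in the 12-array fit, and the 6-array fit called 10 higher and 1 lower, with a median of 0.91 (0.36 after the other background correction). Ptgis, prostacyclin synthase, read -1.21, -1.63 and -0.95 at day 14 and 1.19, 1.53 and 0.52 at day 28 and rose by 2.34 (SE 0.42, adjusted p = 0.0173). Trpc1, a cation channel, read -3.22, -3.37 and -3.08 at day 14 and -1.56, -1.16 and -0.3 at day 28 and rose by 2.22 (SE 0.43, adjusted p = 0.0233). Gucy1b1, a subunit of the guanylate cyclase that senses nitric oxide, read -0.67, -0.47 and -0.59 at day 14 and 0.75, 1.06 and 0.34 at day 28 and rose by 1.29 (SE 0.27, adjusted p = 0.0301). Adra1b, an adrenergic receptor, also rose, by 1.37 (adjusted p = 0.0278), a change of 0.56 after the other background correction. In all 4 the day 28 arrays were above every day 14 array. Kcnma1, the pore of the large-conductance potassium channel, was the member called lower in the 6-array fit, at -4.61, while its partner subunit Kcnmb1 was called higher there, at 1.84. The Kcnma1 probe read 1.93, 3.26 and -0.56 at day 14 and -3.38, -3.18 and -2.64 at day 28, so day 14 replicate 3 lay more than 2 log2 units below the other day 14 arrays.

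Pericyte genes had a median change of 0.87 over 8 members, with 1 that rose in the 12-array fit and 5 in the 6-array fit. Changes were positive for 7 and negative for 1. On slide 1 alone they were positive for 5 and negative for 3, with a median of 0.67. Abcc9, a subunit of the potassium channel of mural cells, read -0.39, -0.37 and -0.21 at day 14 and 1.12, 1.16 and 1.1 at day 28 and rose by 1.45 (SE 0.21, adjusted p = 0.00655). The day 28 arrays lay above the day 14 arrays with little spread within a day, and the day 0 arrays were higher, at 3.0, 3.21 and 2.86. Cspg4, the proteoglycan NG2, read 1.84, 2.16 and 1.83 at day 14 and 3.61, 3.57 and 3.77 at day 28, and Pdgfrb, the receptor that recruits mural cells, read 3.69, 4.22 and 3.69 at day 14 and 4.83, 4.98 and 4.51 at day 28. Both had separate groups and passed the 6-array fit alone (adjusted p = 0.00224 and 0.0279). Summed over the list, signal was 25.7 to 32.9 at day 14 and 54.1 to 54.2 at day 28.

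Endothelial genes were higher by about 2-fold at day 28. Of 16 measured, 14 had a positive change with a median of 1.08 (0.87 on slide 1), 11 had separate groups, 2 rose in the 12-array fit, 10 in the 6-array fit, and 0 were lower in either. Thbd, thrombomodulin, which turns thrombin into an activator of protein C, read 0.16, -0.13 and 0.47 at day 14 and 1.8, 1.82 and 1.72 at day 28 and rose by 1.62 (SE 0.23, adjusted p = 0.00613). Sele, the adhesion molecule E-selectin, read -2.9, -3.28 and -2.65 at day 14 and -0.73, -1.78 and 0.07 at day 28 and rose by 2.13 (SE 0.43, adjusted p = 0.0278). Procr, the endothelial receptor for protein C, read 1.58, 1.16 and 1.72 at day 14 and 2.89, 2.28 and 3.49 at day 28 and rose by 1.4 (SE 0.28, adjusted p = 0.0272). The 3 genes stood apart on all arrays, and day 28 replicate 2 was the lowest day 28 array for Sele and Procr. Plvap, a protein of endothelial pores, and Erg, an endothelial transcription factor, changed by 1.52 and 1.74 and passed the 6-array fit (adjusted p = 0.0177 and 0.00251).

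The usual endothelial markers did not all follow. Pecam1, an adhesion molecule of endothelial junctions, read 2.01, 2.16 and 2.09 at day 14 and 2.33, 1.92 and 2.83 at day 28, and Cdh5, the junctional cadherin, read -1.8, -1.51 and -1.73 at day 14 and -1.44, -1.95 and -0.99 at day 28. Both had overlapping groups, with changes of 0.28 and 0.22 (adjusted p = 0.87 and 0.672). Nos3, the endothelial nitric oxide synthase, read 0.98, 0.89 and 0.94 at day 14 and 1.6, 1.23 and 1.96 at day 28, with separate groups and a change of 0.66 (SE 0.23, adjusted p = 0.138). Selp was not well above background on any of the 6 arrays. The summed signal of the list was 32.1 to 36.8 at day 14 and 54.8 to 91.4 at day 28. Arterial identity genes all had positive changes, 9 of 9, with a median of 0.46, 0 calls in the 12-array fit and 2 in the 6-array fit, among them Gja4, a gap junction protein, at 0.8. Of 3 venous genes 1 had a positive and 2 a negative change, with a median of -0.08, 0 passed the 12-array fit, and 1 lay wholly lower on the day 28 arrays. The positive one, Nr2f2, the transcription factor that sets venous fate, read -0.69, -0.54 and -0.77 at day 14 and 0.36, 0.4 and 0.33 at day 28 and passed the 6-array fit (adjusted p = 0.00398).

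Of 6 lymphatic endothelial genes 1 rose, and it had one of the largest changes of the array. Ccl21, the chemokine that draws dendritic and T cells into lymphatic vessels, read -0.21, 0.93 and -1.32 at day 14 and 4.89, 5.1 and 4.39 at day 28. It rose by 5.0 (SE 0.54, adjusted p = 0.00235), a 31.9-fold difference (5.19 on slide 1), and its day 28 level was near that of day 0, 4.98, 5.91 and 5.61. Lyve1 and Prox1, which define lymphatic endothelium, changed by 0.66 and 0.97 and passed in neither fit, Prox1 being not well above background on any day 14 array, while Flt4, the receptor for lymphatic growth factors, passed the 6-array fit at 1.15 (adjusted p = 0.0332). Without Ccl21 the list therefore held changes of -0.38 to 1.95.

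**Figure D3:**
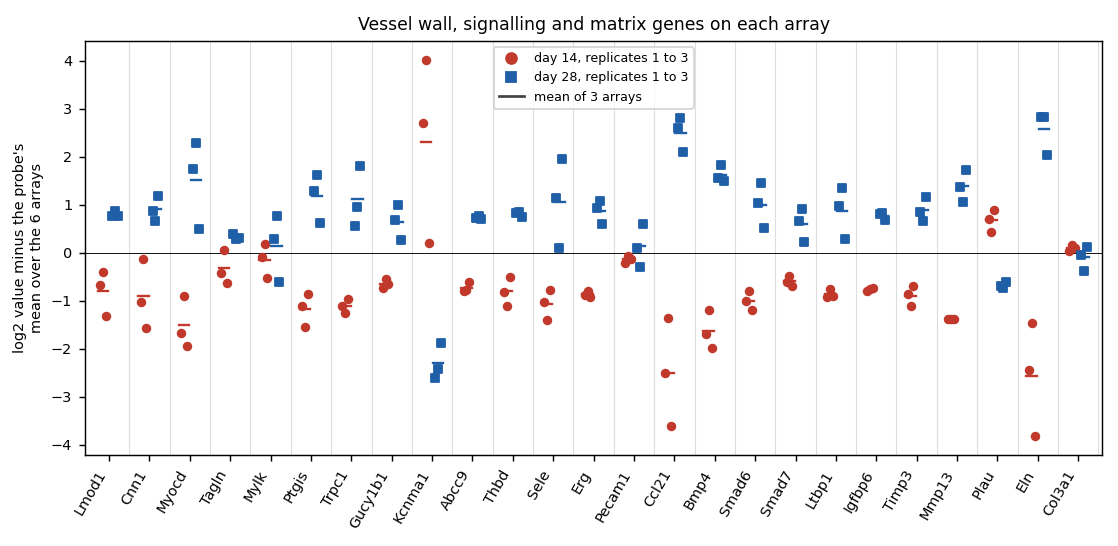
Log2 value of each array minus the probe's mean over the 6 arrays (vertical axis) for 25 genes of the vessel wall, growth factor signalling and matrix (horizontal axis), with day 14 as red circles, day 28 as blue squares and a bar at the mean of 3 arrays. Lmod1, Abcc9, Thbd, Ccl21, Bmp4 and Igfbp6 are higher on all day 28 arrays, Plau and Kcnma1 are lower, and Mylk, Pecam1 and Col3a1 overlap.

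Among TGF-beta and BMP signalling genes, 4 of 21 rose and 0 fell in the 12-array fit, and the 6-array fit called 11 higher and 2 lower, with a median of 0.72 (0.73 on slide 1). Of the ligands, Bmp4 read -2.73, -2.22 and -3.02 at day 14 and 0.52, 0.8 and 0.47 at day 28 and rose by 3.25 (SE 0.64, adjusted p = 0.0248), and Tgfb3 read 2.8, 3.15 and 2.52 at day 14 and 5.06, 5.39 and 4.18 at day 28, with a 6-array adjusted p of 0.0122. Ltbp1, which stores latent TGF-beta in the matrix, read 1.46, 1.63 and 1.48 at day 14 and 3.36, 3.74 and 2.68 at day 28 and rose by 1.74 (SE 0.3, adjusted p = 0.0162). All 3 had separate groups. Of the receptors, Tgfbr2 and Tgfbr3 were the members called lower in the 6-array fit, at -0.61 and -0.44 (adjusted p = 0.0229 and 0.0401). The inhibitory Smads, which feed back on these pathways, both rose. Smad6 read -2.16, -1.94 and -2.34 at day 14 and -0.11, 0.31 and -0.63 at day 28 and rose by 2.0 (SE 0.33, adjusted p = 0.0133), and Smad7 read -1.09, -0.96 and -1.17 at day 14 and 0.17, 0.43 and -0.26 at day 28 and rose by 1.19 (SE 0.24, adjusted p = 0.0265). Of the target genes, Ccn2, a matricellular protein, read 5.44, 5.49 and 5.46 at day 14 and 7.32, 7.27 and 6.97 at day 28, a change of 1.72, with every day 28 array higher, that passed the 6-array fit (adjusted p = 0.0018) and not the 12-array fit (0.192), and its day 7 arrays read 7.23, 7.45 and 4.23. Gdf10, a distant BMP family member outside the list, rose by 4.74 (SE 0.64, adjusted p = 0.00533), or by 2.56 after the other background correction.

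Of 26 growth factors, receptors and their binding proteins, 3 rose in the 12-array fit and the 6-array fit called 9 higher and 3 lower, with a median of 0.26. Ntf3, the neurotrophin for sensory and sympathetic neurons, read -7.75, -8.58 and -8.58 at day 14 and -1.86, -1.16 and -3.5 at day 28. It was not well above background on any day 14 array, which leaves a rise of at least 26.6-fold (adjusted p = 0.00267), and its day 0 arrays were higher still, at 0.24, 1.01 and 0.71. Igfbp2 and Igfbp6 bind insulin-like growth factors. Igfbp2 read -1.41, -2.55 and -0.98 at day 14 and 1.93, 2.42 and 0.94 at day 28 and rose by 3.41 (SE 0.71, adjusted p = 0.0304), and Igfbp6 read 3.78, 3.83 and 3.84 at day 14 and 5.39, 5.4 and 5.26 at day 28 and rose by 1.53 (SE 0.21, adjusted p = 0.00599). Both had separate groups, with little spread within a day for Igfbp6. Pdgfa, a ligand of the platelet-derived growth factor receptors, changed by 1.24 and passed the 6-array fit (adjusted p = 0.00434).

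Fibrillar matrix, elastic fibre and basement membrane genes had 0 calls in the 12-array fit. Of 17 matrix proteases 1 rose and 1 fell, and of 6 protease inhibitors 1 rose. Over all probes 3.36% were called, so these small counts do not set the lists apart. Of the genes in the fibrillar matrix, elastic fibre and basement membrane lists, 11 of 19, 11 of 14 and 4 of 13 were measured. Of 11 fibrillar matrix genes 0 passed the 12-array fit and 3 were higher in the 6-array fit, with a median of 0.26. Col3a1, the chain of type III collagen, read 8.26, 8.38 and 8.32 at day 14 and 8.18, 7.85 and 8.34 at day 28, and Sparc, a collagen-binding matrix protein, read 7.71, 7.56 and 7.49 at day 14 and 7.53, 7.16 and 7.6 at day 28. Their groups overlapped, with changes of -0.2 and -0.16. Eln, elastin, read 2.28, 3.26 and 0.89 at day 14 and 7.55, 7.55 and 6.76 at day 28. Every day 28 array was more than 3 log2 units above every day 14 array, and the change of 5.14 (SE 1.28, adjusted p = 0.057) passed the 6-array fit (adjusted p = 0.00499) and narrowly missed the 12-array threshold. On day 7 elastin read 6.57, 6.92 and 1.01, so that replicate 3, an array with many non-uniform spots, was near day 14 and the other 2 were near day 28. Of 11 elastic fibre genes 4 were higher and 1 lower in the 6-array fit, including Fbln5, a fibulin that assembles elastin, at 1.99, and Loxl4, a crosslinking enzyme, at -0.65. The basement membrane chains Col4a1 and Lamb2 changed by 0.89 and 0.83 and passed the 6-array fit (adjusted p = 0.00652 and 0.00749).

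Matrix proteases went both ways, with a median of 0.01 over 17. Mmp13, a collagenase, read -2.95, -2.96 and -2.96 at day 14 and -0.21, -0.51 and 0.14 at day 28 and rose by 2.76 (SE 0.43, adjusted p = 0.00961). Plau, the urokinase plasminogen activator, read 2.71, 2.45 and 2.91 at day 14 and 1.33, 1.29 and 1.4 at day 28 and fell by 1.35 (SE 0.24, adjusted p = 0.0176). Mmp2, a gelatinase of wall cells, and Ctss, a cathepsin of antigen-presenting cells, changed by 0.17 and -0.86, and the second passed the 6-array fit (adjusted p = 0.0162). Mmp8, the neutrophil collagenase, changed by -2.87 with a 6-array adjusted p of 0.000683, a direction shared with the neutrophil markers above. Among the inhibitors, Timp3, which stays bound to matrix, read 2.05, 1.8 and 2.21 at day 14 and 3.76, 3.58 and 4.08 at day 28 and rose by 1.79 (SE 0.28, adjusted p = 0.00961). Timp1 overlapped between the days, at 6.61, 5.79 and 6.94 at day 14 and 5.88, 5.33 and 6.42 at day 28, and A2m, the protease trap alpha-2-macroglobulin, read 2.89, 2.67 and 2.91 at day 14 and 1.47, 1.21 and 1.65 at day 28 and passed the 6-array fit as lower (adjusted p = 0.00424). Of 10 bone and cartilage genes Cytl1, a secreted cartilage protein, rose by 1.53 (SE 0.31, adjusted p = 0.027), and Acan, the cartilage proteoglycan aggrecan, changed by 3.43 (6-array adjusted p = 0.017). Of the 9 fibroblast genes 0 passed the 12-array fit, and Dcn, decorin, read 4.51, 3.87 and 4.67 at day 14 and 5.27, 5.12 and 5.44 at day 28 with a 6-array adjusted p of 0.0379.

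Adipocyte genes gave 1 rise and 1 fall among 14 measured, with a median of 0.39. Adipoq, the fat hormone adiponectin, read -5.47, -5.21 and -6.34 at day 14 and -2.36, -2.83 and -1.94 at day 28 and rose by 3.29 (SE 0.44, adjusted p = 0.00526). Its day 28 level was still below the day 0 arrays, at 3.57, 2.2 and 1.96, and the change was 1.42 after the other background correction. Pck1, an enzyme of glycerol and glucose synthesis, read -1.51, -2.19 and -1.3 at day 14 and -3.5, -3.67 and -3.34 at day 28 and fell by 1.84 (SE 0.43, adjusted p = 0.0476). Fabp4, the fatty acid carrier of fat cells and capillaries, overlapped between the days at 0.21. Elovl6, which lengthens fatty acids, read 1.68, 2.11 and 1.3 at day 14 and -0.43, -0.53 and -0.2 at day 28 and fell by 2.08 (SE 0.26, adjusted p = 0.00397). It was the one fatty acid synthesis gene of 9 that passed, and the 14 mitochondrial and the 17 glycolysis genes had 0 calls in the 12-array fit and medians of 0.11 and 0.23.

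Of 10 neuronal genes 2 rose in the 12-array fit and 4 in the 6-array fit, 0 were lower in either, and the median was 0.39. The genes that rose in the 12-array fit encode neurofilaments. Nefm and Nefl, the medium and light chains of neurofilaments, were not well above background on any day 14 array and were on all day 28 arrays. Nefl read -6.65, -7.73 and -6.84 at day 14 and -3.08, -2.85 and -3.23 at day 28, a rise of at least 12.5-fold (adjusted p = 0.00965), and Nefm read -6.96, -7.21 and -8.69 at day 14 and -3.39, -3.14 and -3.74 at day 28, a rise of at least 10.4-fold (adjusted p = 0.00634). On day 7 both were higher again, Nefl at -0.91, -0.49 and -3.35 and Nefm at -0.69, -0.41 and -2.24, so the day 14 arrays held the lowest graft levels. The neuronal markers Uchl1 and Tubb3 passed in neither fit, with changes of -0.15 and 0.27 and overlapping groups. Of 12 Schwann cell and myelin genes 0 passed the 12-array fit and 4 were higher in the 6-array fit, among them Mbp, myelin basic protein, at 2.92 (adjusted p = 0.0136). Prima1, which anchors acetylcholinesterase, read -2.91, -2.91 and -2.89 at day 14 and 1.65, 2.26 and -0.24 at day 28 and rose by 4.12 (SE 0.93, adjusted p = 0.0418).

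Genes of skeletal muscle, a tissue that borders the carotid artery in the neck, had the largest positive median of any list, 3.18 over 18 genes, all with a positive change. They varied widely within each day, 5 had separate groups, and 2 rose in the 12-array fit. Myh4, the fastest myosin heavy chain, read -2.43, -6.43 and -1.51 at day 14 and 5.04, -0.23 and 5.96 at day 28 and rose by 7.05 (SE 1.62, adjusted p = 0.0442), a call lost in the 6-array fit (adjusted p = 0.0524). Pvalb, the calcium buffer parvalbumin, read -1.27, -3.51 and -0.75 at day 14 and 4.94, 0.88 and 6.02 at day 28 and rose by 5.79 (SE 1.15, adjusted p = 0.0252). In both the lowest array of each day was replicate 2. Acta1, skeletal actin, read 3.61, -0.51 and 4.15 at day 14 and 6.56, 4.0 and 7.27 at day 28, and Tnnc2, fast troponin C, read 3.15, -0.77 and 3.71 at day 14 and 6.04, 2.61 and 6.97 at day 28. The groups of both overlapped, with changes of 3.52 and 3.18 (adjusted p = 0.13 and 0.178). Summed over the 18 probes, signal was 19.3 to 117 at day 14 and 76.4 to 1130 at day 28, lowest each day on replicate 2. Dapl1, described further on among the 20 largest rises, was likewise lowest at day 28 on replicate 2. At day 14 its lowest array was replicate 3, at -3.52, unlike Myh4 and Pvalb.

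Promoters of muscle genes are known for the CArG box, bound by serum response factor, and those of the 2 muscle genes that held one on either strand are shown with it in capitals, again as 250 bases before the start in GRCr8.
Myh4 (chr10:52421898-52422147, plus strand): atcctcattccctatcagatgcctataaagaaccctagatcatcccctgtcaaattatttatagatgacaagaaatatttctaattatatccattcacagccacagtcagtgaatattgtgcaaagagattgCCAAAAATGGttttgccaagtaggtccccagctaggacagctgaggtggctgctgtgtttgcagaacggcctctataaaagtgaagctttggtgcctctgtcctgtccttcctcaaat
Acta1 (chr19:68784195-68784444, minus strand): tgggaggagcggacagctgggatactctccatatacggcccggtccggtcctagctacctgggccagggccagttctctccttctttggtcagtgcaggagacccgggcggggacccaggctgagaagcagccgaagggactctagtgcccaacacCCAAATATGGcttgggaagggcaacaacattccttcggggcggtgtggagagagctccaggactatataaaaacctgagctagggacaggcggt
The box began 118 bases before the start in Myh4 and 94 in Acta1. It was found in 2 of 17 skeletal muscle genes with a sequence, of 18 measured, in 0 of 10 contractile smooth muscle genes with a sequence, of 14 measured, and in 1.5% of all stretches. Of 8 cardiac muscle genes 0 rose and 2 fell, with 3 positive and 5 negative changes and a median of -0.34. Actc1 changed by 0.73 and passed in neither fit (adjusted p = 0.433 and 0.128). Its day 28 arrays, at 3.87, 3.14 and 4.32, were above those of day 14, with replicate 2 lowest on both days. Tnnt2, cardiac troponin T, read 3.56, 3.52 and 3.73 at day 14 and 2.21, 1.52 and 2.71 at day 28 and fell by 1.45 (SE 0.3, adjusted p = 0.0291), and Mybpc3, cardiac myosin-binding protein C, fell by 0.83 (SE 0.18, adjusted p = 0.0387).

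Genes made in liver gave the 3 largest falls among probes with a symbol. Of 14 liver plasma protein genes all had a negative change with a median of -2.92 (-3.08 on slide 1, -1.51 after the other background correction), 5 fell in the 12-array fit and 9 in the 6-array fit. Alb, serum albumin, read 3.49, 1.38 and 3.95 at day 14 and -4.61, -5.01 and -4.52 at day 28 and fell by 7.65 (SE 0.53, adjusted p = 0.000259). Fgg, the gamma chain of fibrinogen, read -0.62, -2.87 and -0.02 at day 14 and -7.78, -8.41 and -7.26 at day 28 and was not well above background at day 28, a fall of at least 61.2-fold (adjusted p = 0.00133). Fabp1, the fatty acid carrier of liver, read 0.47, -1.42 and 0.98 at day 14 and -8.97, -8.75 and -8.61 at day 28, likewise a fall of at least 139-fold (adjusted p = 0.00017). In all 3 genes day 14 replicate 2 was lower than the other day 14 arrays by about 2 log2 units, and the day 7 arrays, at -4.59, -5.0 and -4.78 for Alb, were as low as day 28. Fga, the alpha chain of fibrinogen, and Ttr, transthyretin, fell by 3.38 and 2.62 (adjusted p = 0.00523 and 0.0149), Fga changed by -1.57 after the other background correction, and Ttr differed from those above in that its day 7 arrays, at 0.92, 1.21 and 0.14, were near day 14. Apoa2, an apolipoprotein, read -4.72, -3.08 and -5.84 at day 14 and -7.77, -6.74 and -6.55 at day 28, with day 14 replicate 2 highest, and its fall of at least 5.04-fold (adjusted p = 0.0493) was lost in the 6-array fit (0.0582). Gnmt and the murinoglobulins Mug1 and Mug1l1, a close pair whose probes may share signal, are also liver products and fell by at least 15.2-fold, 29.1-fold and 28.5-fold (adjusted p = 0.0171, 0.000781 and 0.000718). Over the 14 probes the summed signal was 7.24 to 23.2 at day 14 and 1.03 to 1.47 at day 28. The source of these transcripts in a vein was not tested.

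**Figure D4:**
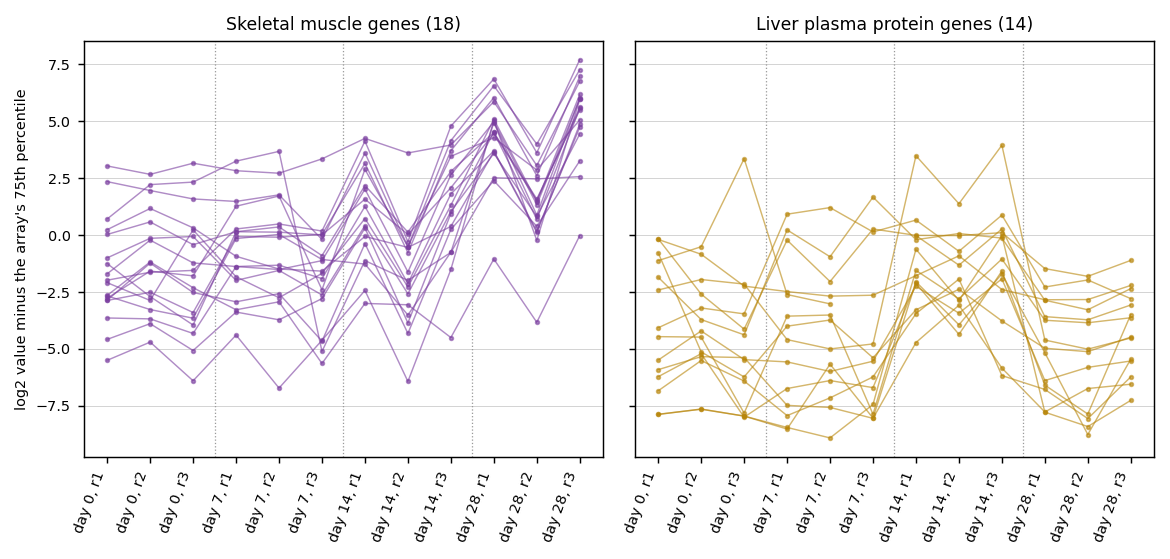
Log2 value minus the array's 75th percentile (vertical axis) on all 12 arrays in order of day and replicate (horizontal axis), for 18 skeletal muscle genes (left) and 14 liver plasma protein genes (right), with a line joining the values of each probe. Most skeletal muscle lines dip at replicate 2 of day 14 and of day 28 and are highest at day 28, whereas most liver lines are highest at day 14 and drop at day 28.

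The other large rises were Kera, Pkhd1l1, Pi15, RGD1565959, Kcng1, Fmo2, Dapl1, C1qtnf3, Calb1, Tyrp1 and Mtus2. Kera, keratocan, a small leucine-rich proteoglycan, read -6.35, -5.22 and -8.27 at day 14 and -0.06, -0.3 and 0.13 at day 28 and rose by 6.53 (SE 0.66, adjusted p = 0.00133), or by 3.27 after the other background correction, with 2 of 3 day 14 arrays well above background. C1qtnf3, a secreted C1q-like protein, read 0.46, 0.82 and 0.35 at day 14 and 4.71, 5.06 and 3.93 at day 28 and rose by 4.02 (SE 0.9, adjusted p = 0.0403), and its day 7 arrays read 4.76, 5.1 and 1.88. Fmo2, a flavin-containing monooxygenase, read -4.34, -4.32 and -4.21 at day 14 and 0.11, -0.09 and 0.53 at day 28 and rose by 4.47 (SE 0.52, adjusted p = 0.00274). Kera was low on all arrays of the earlier days, whereas Fmo2 at day 28 came near its day 0 arrays, at 0.96, 1.86 and 1.44. Dapl1 read -3.18, -3.33 and -3.52 at day 14 and 1.03, -0.03 and 1.58 at day 28 and lay between -3.42 and -2.44 on all arrays of days 0 and 7, and it rose by 4.2 (SE 0.35, adjusted p = 0.000781). Pkhd1l1, Pi15, Kcng1, Calb1 and Tyrp1 were not well above background on any day 14 array, with rises of at least 22.9-fold, 17.5-fold, 13.5-fold, 5.04-fold and 3.82-fold. Day 0 means of Pkhd1l1, Pi15 and Calb1 were 1.95, -1.58 and -4.04, above their day 28 means of -2.39, -2.73 and -4.57. That of Kcng1, at -3.77, was below its day 28 mean of -3.15. RGD1565959, for which no function is given here, rose by 4.88 (SE 0.49, adjusted p = 0.00134), and Mtus2, well above background on 1 day 14 array, rose by 3.63 (SE 0.66, adjusted p = 0.0189), or by 0.83 after that correction.

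Several of the largest falls belonged to a block of probes that was high on the day 14 arrays alone. Zzz3, a zinc finger protein, read 3.8, 4.12 and 3.17 at day 14 and -0.02, -1.2 and 1.03 at day 28, against -2.0, -1.14 and -0.87 at day 0 and -1.25, -1.82 and -0.29 at day 7, and fell by 3.76 (SE 0.57, adjusted p = 0.00898). Over the 12 arrays 36 other probes had a Pearson correlation with it above 0.97, and all 37 were called lower at day 28, by changes of -2.50 to -4.15. Since the probes were gathered by their likeness to Zzz3 after its values were seen, this is a description of one shared profile across 4 groups and carries no test. Within day 14 the order of arrays was replicate 2 highest and replicate 3 lowest for Zzz3, and at day 28 replicate 2 was lowest. The block included Vangl1, a planar polarity protein, which read 3.74, 4.24 and 3.31 at day 14 and -0.11, -1.18 and 0.79 at day 28, Kcnj9, a potassium channel, which read 0.66, 1.21 and 0.04 at day 14 and -3.11, -4.17 and -2.03 at day 28, and Pamr1, which read -0.5, 0.33 and -0.56 at day 14 and -4.11, -5.45 and -3.25 at day 28. It also held Tox2, Pcdhb2, Ifna5, Prr3, Tlcd5, the olfactory receptors Or8h7, Or52e8b, Or52e51 and Or52m2, and 23 probes without a symbol, 5 of them for ultraconserved regions. The mean level of its probes over the 12 arrays ran from -6.28 to 3.56, so it was not confined to dim spots. Olfactory receptors are a family of near copies. Of 1098 on the array 11 were called lower and 3 higher, smaller shares than the 1.62% and 1.74% of all probes.

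**Figure D5:**
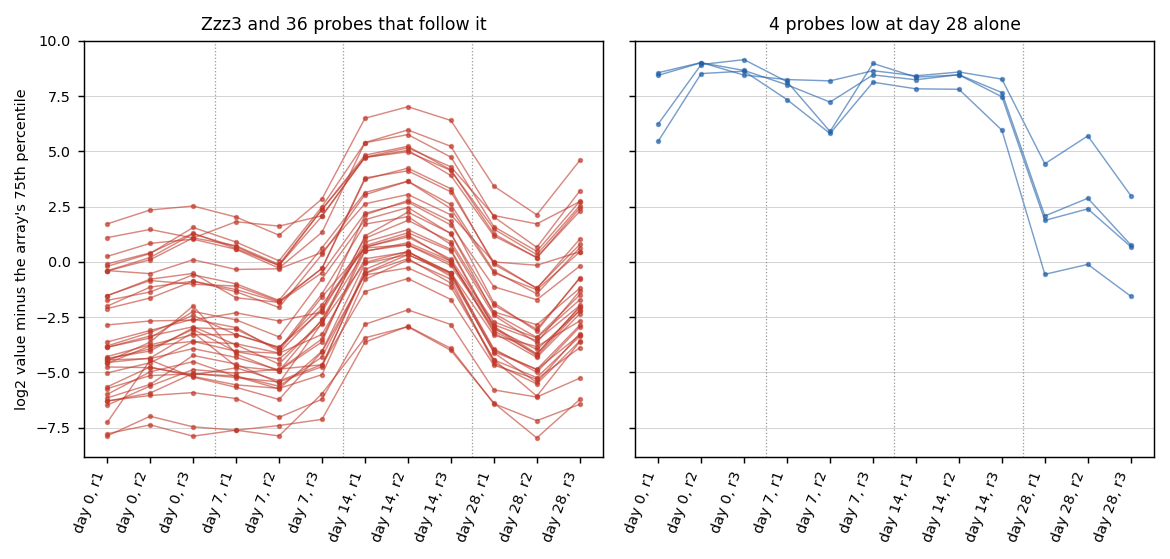
Log2 value minus the array's 75th percentile (vertical axis) on all 12 arrays in order of day and replicate (horizontal axis), with a line joining the values of each probe. Left, Zzz3 and the 36 probes that follow it rise on the 3 day 14 arrays and are lower on the day 28 arrays. Right, 4 probes without a symbol stay high through day 14 and are low on the 3 day 28 arrays alone.

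The remaining large falls were Syce1, Cyp4a3, Mgat4c, Prss3bl1, Spmap2l, Ankrd17 and the olfactory receptor Or8h7b. Ankrd17 and Or8h7b were left out of the block only by its correlation cutoff of 0.97. Both were highest on the day 14 arrays, and replicate 2 was their highest array at day 14 and their lowest at day 28, as for Zzz3. Syce1, a protein of the meiotic synaptonemal complex, read -2.36, -1.86 and -2.14 at day 14 and -6.34, -6.78 and -7.56 at day 28 and fell by 4.77 (SE 0.39, adjusted p = 0.000718), with 1 day 28 array well above background and a change of -1.96 after the other background correction. Cyp4a3, a fatty acid hydroxylase, read -3.51, -3.65 and -3.98 at day 14 and -7.69, -8.77 and -7.66 at day 28, and its fall was at least 10.5-fold (adjusted p = 0.00267). Syce1 was low on all arrays of days 0 and 7, while Cyp4a3 was highest at day 0, at -1.7, 0.05 and -0.08. Ankrd17 read 2.88, 3.32 and 1.97 at day 14 and -0.94, -1.79 and 0.17 at day 28 and fell by 3.58 (SE 0.66, adjusted p = 0.0196), Spmap2l, likewise above background on 1 day 28 array, fell by 3.56 (SE 0.24, adjusted p = 0.000259) with a change of -1.24 after that correction, and Mgat4c and Prss3bl1 fell by at least 10.1-fold and 6.9-fold.

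Of 10390 probes without a symbol 338 were called. By identifier type, 3.39% of 15321 probes with a coding accession were called, 3.52% of 3722 transcripts inferred from a mouse ortholog, 4.33% of 2263 other cDNA records, 2.31% of 1731 predicted or curated RefSeq transcripts and 2.49% of 1647 ultraconserved regions, against 3.36% overall. The largest fall among them was XR_006359, which read 7.83, 7.81 and 5.96 at day 14 and -0.56, -0.11 and -1.55 at day 28, and it fell by 7.94 (SE 0.91, adjusted p = 0.00267). MRAK149123 read 8.24, 8.47 and 7.66 at day 14 and 2.08, 2.88 and 0.77 at day 28, against 8.44, 9.01 and 8.66 at day 0 and 8.01, 7.23 and 8.46 at day 7, and it fell by 6.21 (SE 0.5, adjusted p = 0.000718), with a change of -5.58 on slide 1. Together with MRAK148606 and NM_001025002.1 these probes were lower by 4 log2 units or more at day 28 than at day 14, with day 28 replicate 2 highest and replicate 3 lowest in each. The largest rise was U65217, which read -5.03, -3.24 and -5.17 at day 14 and 3.35, 3.57 and 3.04 at day 28 and rose by 7.8 (SE 0.91, adjusted p = 0.00274), with day 7 arrays at 4.22, 4.41 and 3.63. MRAK164133 read -1.99, -2.15 and -1.93 at day 14 and 3.67, 3.4 and 3.3 at day 28 and rose by 5.48 (SE 0.55, adjusted p = 0.00133), and it was below 0 on every array of the other days. M87783, above background on 1 day 14 array, rose by 5.44 (SE 0.95, adjusted p = 0.0162) with a change of 2.08 after the other background correction, S64522 rose by at least 38.8-fold (adjusted p = 0.0175), and both were also higher on the day 7 than on the day 14 arrays. BC158594 and XR_006722 fell by at least 8.91-fold and 11.8-fold (adjusted p = 0.00267 and 0.0151).

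Several further transcripts did not pass the 12-array fit. H19, an imprinted non-coding RNA of growing tissue, read 4.1, 3.15 and 4.49 at day 14 and 4.51, 3.12 and 5.38 at day 28, and Dio3, the enzyme that inactivates thyroid hormone, read 1.69, 0.97 and 1.96 at day 14 and 1.91, 1.88 and 1.98 at day 28. Both overlapped, with changes of 0.42 (SE 0.82, adjusted p = 0.835) and 0.38 (SE 0.52, adjusted p = 0.736), and both were far lower at day 0, at 0.65, -1.77 and -2.77 and -4.59, -6.81 and -5.3. Msln, the mesothelial protein mesothelin, read 4.43, 4.12 and 4.61 at day 14 and 3.97, 3.43 and 4.42 at day 28, a change of -0.45 (SE 1.72, adjusted p = 0.933). Rpph1, the RNA of ribonuclease P, read 2.7, 3.2 and 2.55 at day 14 and 2.02, 1.96 and 2.18 at day 28, and Slc6a12, a betaine transporter, read -0.8, -0.9 and -0.76 at day 14 and -1.65, -1.49 and -1.73 at day 28. These 2 had separate groups and passed the 6-array fit as lower (adjusted p = 0.0386 and 0.00802), with 12-array values of 0.18 and 0.142. Of 15 immediate-early genes 0 passed the 12-array fit, with a median of 0.09, and the 8 erythroid genes had 0 calls in either fit and a median of 0.18, with Hbb, beta globin, at 7.32, 7.62 and 6.94 at day 14 and 7.86, 7.63 and 7.76 at day 28. Mast cell genes had 0 calls in either fit over 9 members.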

How the data were processed

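The samples were 12 single-colour arrays of total RNA, depleted of ribosomal RNA and labelled with Cy3 from oligo(dT) and random primers, per the labels' protocols. The deposited scanner files hold intensity values, namely the background-subtracted processed signals that Agilent Feature Extraction 11.0.1.1 wrote, as their headers record. The deposited series table holds log2 values whose scaling is not given in the sources used here. From the processed signal, log2 minus each array's 75th percentile was taken over 42136 gene spots, control and outlier spots were left out, and spots were averaged into 24684 probes. Of these 14294 had 1 gene symbol and 10390 had none. limma 3.58.1 in R 4.3.3 fitted 4 day means to the 12 arrays, and the contrast of day 28 with day 14 was adjusted by Benjamini-Hochberg over all probes. The arrays hold no counts, so their number limits the precision. An exact permutation test of 3 against 3 arrays cannot go below 0.1.

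A fold is written as "at least" where no array of the dimmer day had the probe well above background. It sets the brighter day's mean against the higher of the probe's own signal and the lowest signal well above background. Alternatives were the arrays fitted, slide blocks, scaling, background correction, filters on dim probes, array weights, the deposited values and each array left out. The background correction by normexp, with an offset of 50, had to use the median spot signal because the mean signal is not a column of these files. The models were tested on simulated data. The series matrix was used only as an alternative. A few genes that the rule below names are not reported here.

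Named genes are the 20 largest rises and 20 largest falls with a symbol, up to 6 called and the 2 of highest mean signal in each of 45 gene lists, 5 probes without a symbol each way, and a fixed set of markers. Members and lists were chosen with earlier results of these data known. Ciita, Cd163, Csf3r, Cxcr2, Tnfrsf17, Il1b, Cxcl10, Il6, Cxcl13, Cx3cl1, Myocd, Ppp1r14a, Cnn1, Kcnma1, Kcnmb1, Erg, Lyve1, Prox1, Flt4, Reln, Tgfbr2, Tgfbr3, Pdgfa, Fbln5, Loxl4, Mmp8, Acan, Mbp, NM_001025002.1, the probes that follow Zzz3, and Apoe, Cd4 and Foxm1 in a plot were chosen after their values were seen. Symbols were updated through RefSeq accessions, and promoter stretches came from RefSeq on GRCr8, a later build than that of the array's annotation.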

Additional observations from a re-analysis of the deposited data

How the results depend on the processing

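The number of probes called depended strongly on which arrays set the spread and on the background correction. Against 829 (429 higher, 400 lower), the fit of the 6 arrays gave 5700 (2649 and 3051), the graft arrays alone 2829 (1192 and 1637), and leaving out the 2 arrays with many non-uniform spots, an alternative chosen after seeing the data, 4300 (2169 and 2131). Array quality weights gave 16579 (6960 and 9619), slide as a fixed block 97 (39 and 58), normexp background correction 57 (22 and 35), and slide 1 alone 1215 (665 and 550). Leaving out each day 14 or day 28 array in turn gave 145 to 454, with 59 to 243 higher and 86 to 211 lower. Of the list members, 43 of 565 were called, against 233 with 6 arrays, 120 with graft arrays, 163 without the 2 arrays, 440 with weights, 85 on slide 1, 5 with the slide block, 7 with normexp and 12 to 29 with an array left out. Of the 183 named probes, 85 were called, and of these 85 calls 23 held with the slide block, 20 with normexp and 38 to 64 with an array left out. Quantile or median scaling, the filters, kept outlier spots, slide as a random block and the deposited values gave 793 to 991 or, for the deposited values, 1131 calls. No value changed sign with a call. No paired analysis was possible because the labels give every array the same replicate number. Groups of 3 arrays were not screened for outlying samples. Probes near background, such as Ntf3 and Fabp1, are limited by signal, and their folds are bounds.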
